A study of Mus musculus with 18 samples.

Results

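Adrenergic signaling was followed through 9 genes, which are Adrb3, Adrb1, Adra1a, Adra1b and Adra2a for the receptors, Gnas for the stimulatory G protein, Pde3b for a cAMP phosphodiesterase, and Prkar2b and Prkaca for protein kinase A (PKA). They were taken by name from the 55487 genes counted in each library, with earlier results of these data known. All 9 passed the filter on low counts in every comparison. Adra1b passed it only through Csn8AKO libraries in the BAT genotype comparison, and only through sWAT libraries between depots. The RNA-seq libraries came from subcutaneous white adipose tissue (sWAT), with 4 Ctrl and 4 Csn8AKO mice aged 12 weeks, and from brown adipose tissue (BAT), with 5 Ctrl and 5 Csn8AKO mice aged 4 weeks. Each library came from 1 male mouse killed after a 4 h fast. All mice carried the floxed Csn8 allele on both chromosomes (Csn8 f/f). Csn8AKO mice also carried Cre recombinase under the adiponectin promoter, which removes exons of Csn8, a subunit gene of the COP9 signalosome, in adipocytes, and their Csn8 f/f littermates without Cre were the Ctrl mice. The tissue was sequenced whole, so that cells outside the reach of adiponectin-driven Cre are in every library.

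Noradrenaline from sympathetic nerves acts on adipocytes mainly through beta-adrenergic receptors, which couple to the stimulatory G protein and raise cAMP. PKA, released from its regulatory subunits by cAMP, then drives lipolysis in white fat and both lipolysis and thermogenesis in brown fat. Alpha-2 receptors couple to inhibitory G proteins and oppose this, alpha-1 receptors couple to Gq and calcium, and Pde3b breaks down cAMP when insulin acts on the adipocyte. In rodent adipocytes Adrb3 is known as the main beta-adrenergic receptor.

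RefSeq promoter windows on GRCm38.p6, which run from 250 bases before to 50 bases after a transcript start, were present for 6 of the 9 genes in 12 windows, and not for Adra1a, Adrb3 and Pde3b. The half-site of the cAMP response element, TGACG on either strand, was in 6 of the 12 windows, those of Adrb1 (1 window), Adra2a (1 window), Prkaca (1 of 2 windows) and Gnas (3 of 4 windows, of which 2 overlap and hold the same half-site). It was in 20.8% of 32851 mouse promoter windows of this length. The full element, TGACGTCA, which contains the half-site on both strands, was in 0 of the 12 windows and in 1.79% of all windows. The windows of Adrb1, which fell in Csn8AKO sWAT, and of Prkaca, which fell in Csn8AKO BAT, are shown with the half-site in capitals (TGACG, or CGTCA where it lies on the other strand). They lie on the plus strand at chr19:56721867-56722166 for Adrb1 and chr8:83972728-83973027 for Prkaca.
Adrb1: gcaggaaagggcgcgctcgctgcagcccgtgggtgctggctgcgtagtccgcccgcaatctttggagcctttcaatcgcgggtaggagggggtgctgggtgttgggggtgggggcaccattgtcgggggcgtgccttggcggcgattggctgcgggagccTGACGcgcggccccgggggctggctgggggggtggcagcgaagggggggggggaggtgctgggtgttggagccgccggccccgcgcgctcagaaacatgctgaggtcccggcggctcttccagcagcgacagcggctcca
Prkaca: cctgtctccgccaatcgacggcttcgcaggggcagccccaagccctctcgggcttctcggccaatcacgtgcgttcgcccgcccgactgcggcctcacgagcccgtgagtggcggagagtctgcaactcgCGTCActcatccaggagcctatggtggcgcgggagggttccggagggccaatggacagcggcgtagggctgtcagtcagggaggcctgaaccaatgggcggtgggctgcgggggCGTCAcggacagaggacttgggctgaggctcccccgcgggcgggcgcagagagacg
Adrb1 had 1 half-site and Prkaca had 2. These letters mark a match to the motif and not a site of binding.

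Between 15835721 and 23109603 reads were counted on genes per sWAT library and between 26658593 and 66719937 per BAT library. Values per library are CPM, counts scaled by library size and TMM factor, which compare a gene between libraries, and levels of different genes are compared per length as TPM, counts per base scaled to one total per library. Genotypes were compared within each tissue by edgeR's quasi-likelihood test, and a gene was called at a Benjamini-Hochberg adjusted p under 0.05 over all genes tested. Csn8 is named Cops8 in the annotation. Cops8 had a log2 fold change of -0.12 in Csn8AKO sWAT (SE 0.11, adjusted p = 0.623, edgeR) and of -0.30 in Csn8AKO BAT (SE 0.09, adjusted p = 0.0211, edgeR). The whole-gene count also holds reads from cells without Cre and from transcripts that lack only the deleted exons. Ribosomal RNA genes took 1.80% to 19.7% of counts in Ctrl sWAT, 3.95% to 47.8% in Csn8AKO sWAT, 0.861% to 10.1% in Ctrl BAT and 1.06% to 15.1% in Csn8AKO BAT. The 12 B and T cell markers summed to 357 CPM in Ctrl sWAT replicate 1 and 684 CPM in Csn8AKO sWAT replicate 2, and to at most 37.8 CPM in the other libraries. Ucp1 identified the tissues, with 1637 to 5408 CPM in BAT and at most 6.81 CPM in sWAT. The skeletal muscle gene Acta1 was at 25.1 to 587 CPM in sWAT, at 27.2 and 53.2 CPM in Csn8AKO BAT replicates 1 and 5, and at most 0.87 CPM in the other BAT libraries.

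In Ctrl mice the depots differed in the shares of these 5 receptor subtypes. Per length, Adrb3 held 90.6% ± 3.70 (SD, n = 4) of the summed TPM of the 5 receptor genes in sWAT and 48.6% ± 6.53 (SD, n = 5) in BAT. Adra1a, a Gq-coupled alpha-1 receptor, held 2.21% ± 0.60 in sWAT and 34.6% ± 5.50 in BAT. Adrb1, the beta-1 receptor, held 5.90% ± 3.42 in sWAT and 16.7% ± 1.36 in BAT. Adra1b and Adra2a made up the rest, at 1.04% and 0.238% in sWAT and 0.0289% and 0.0963% in BAT. The sum holds these 5 genes only and leaves out Adra1d, another alpha-1 receptor gene, which was at 10.2 TPM in Ctrl sWAT, where Adra1a was at 5.42 TPM, and at 23.6 TPM in Ctrl BAT. The lowest Adrb3 share in sWAT, 85.2%, was above the highest in BAT, 58.5%. The shares are taken within a library and do not depend on how libraries are scaled to each other.

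**Figure D1:**
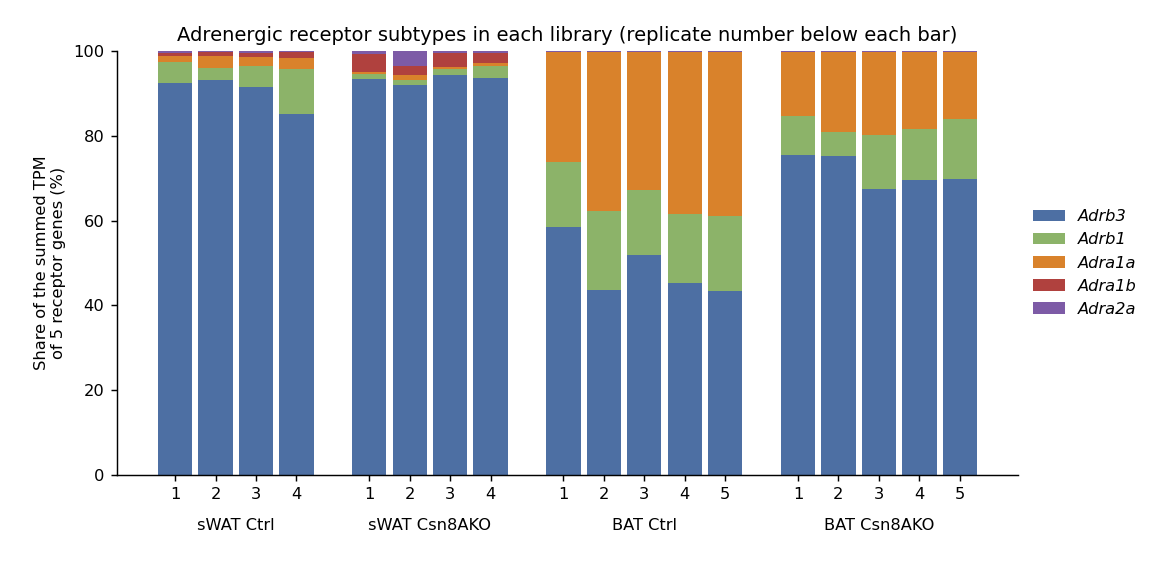
Share (%) of each of 5 adrenergic receptor genes in their summed TPM, 1 stacked bar per library, with the replicate number under each bar and the 4 groups side by side. Adrb3 fills at least 85.2% of every sWAT bar, whereas Adra1a takes 25.9% to 38.8% of the Ctrl BAT bars and 15.1% to 19.5% of the Csn8AKO BAT bars.

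Of the 9 genes, 5 were higher and 3 lower in Ctrl BAT than in Ctrl sWAT, against a background in which 52.7% of 22381 genes were called, with 25.7% higher and 27.0% lower. The libraries of the 2 depots did not overlap for 7 of the 9 genes and for 45.7% of all genes tested. The depots also differed in age, at 12 weeks for sWAT and 4 weeks for BAT, so depot and age cannot be told apart. Adra1a had a log2 fold change of 3.74 (SE 0.18, adjusted p = 4.83e-09, edgeR), a 13.4-fold higher level in BAT. Adrb1 was 2.49-fold higher (log2 fold change 1.32, SE 0.28, adjusted p = 0.00284) and Adrb3 was lower in BAT (log2 fold change -1.12, SE 0.15, adjusted p = 3.58e-05). Adra1b was lower in BAT (log2 fold change -5.26, SE 0.37, adjusted p = 9.73e-08), where 2 to 8 reads per Ctrl library were counted on it. In this comparison Adra1b passed the filter on low counts only through the sWAT libraries. Adra2a had a log2 fold change of -1.58 (SE 0.50, adjusted p = 0.0182), but its ranges overlapped, and without Ctrl sWAT replicate 1, the Ctrl library highest in B and T cell markers, the adjusted p was 0.0804.

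Among the 4 genes below the receptors, the reads counted differed most between depots at Gnas, whose level is uncertain. Gnas, which encodes the stimulatory alpha subunit, was at 8.03, 5.76, 4.24 and 5.22 CPM in Ctrl sWAT and at 142, 106, 77.3, 90.9 and 81.2 CPM in Ctrl BAT. Every BAT library was above every sWAT library (log2 fold change 4.04, SE 0.24, adjusted p = 1.53e-07, edgeR). Its exons share 988 bases with Nespas and 1469 bases with Gm20721, both on the opposite strand, and reads that fit more than 1 gene were not counted, so its level is uncertain. Nespas and Gm20721 held at most 14 and 35 reads in any library. Prkar2b, the regulatory RII-beta subunit of PKA found mainly in fat and brain, was 2.60-fold higher in BAT (log2 fold change 1.38, SE 0.14, adjusted p = 2.90e-06). Prkaca, the catalytic alpha subunit, was 2.10-fold higher (log2 fold change 1.07, SE 0.15, adjusted p = 5.50e-05), and Pde3b had a log2 fold change of -0.07 (SE 0.14, adjusted p = 0.687).

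Per length, Prkar2b led the 9 genes in all 4 groups, at 307 ± 78.0 TPM (SD, n = 4) in Ctrl sWAT and 754 ± 60.6 TPM (SD, n = 5) in Ctrl BAT. In Ctrl sWAT it was followed by Adrb3 (229 TPM), Prkaca (171 TPM) and Pde3b (113 TPM), and the ranges of neighbours among these 4 overlapped. A gap without overlap then led down to Adrb1 (15.5 TPM) and Adra1a (5.42 TPM), with Adra1b (2.59 TPM), Gnas (1.49 TPM) and Adra2a (0.617 TPM) last. Reads that fit more than 1 gene were not counted, so the level and rank of Gnas are uncertain in every group. In Ctrl BAT the order was Prkar2b, Prkaca (346 TPM), Pde3b (100.9 TPM), Adrb3 (98.6 TPM), Adra1a (71.1 TPM), Adrb1 (34.0 TPM), Gnas (22.0 TPM), Adra2a (0.194 TPM) and Adra1b (0.0597 TPM). Of these neighbours, Pde3b and Adrb3 overlapped, and so did Adrb3 and Adra1a. In Csn8AKO sWAT Adra1a came last at 0.511 TPM, and its range overlapped that of Adra2a (0.880 TPM) above it. In Csn8AKO BAT Adrb3 (224 TPM) was next after Prkaca (265 TPM) and overlapped it, and was clear of Pde3b (86.8 TPM) below it. TPM is a share of all counted reads, so it moves with the ribosomal RNA share given above. TPM levels are to be read within a group, also where those of sWAT and BAT stand side by side, as for Prkar2b and Adra1d.

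**Figure D2:**
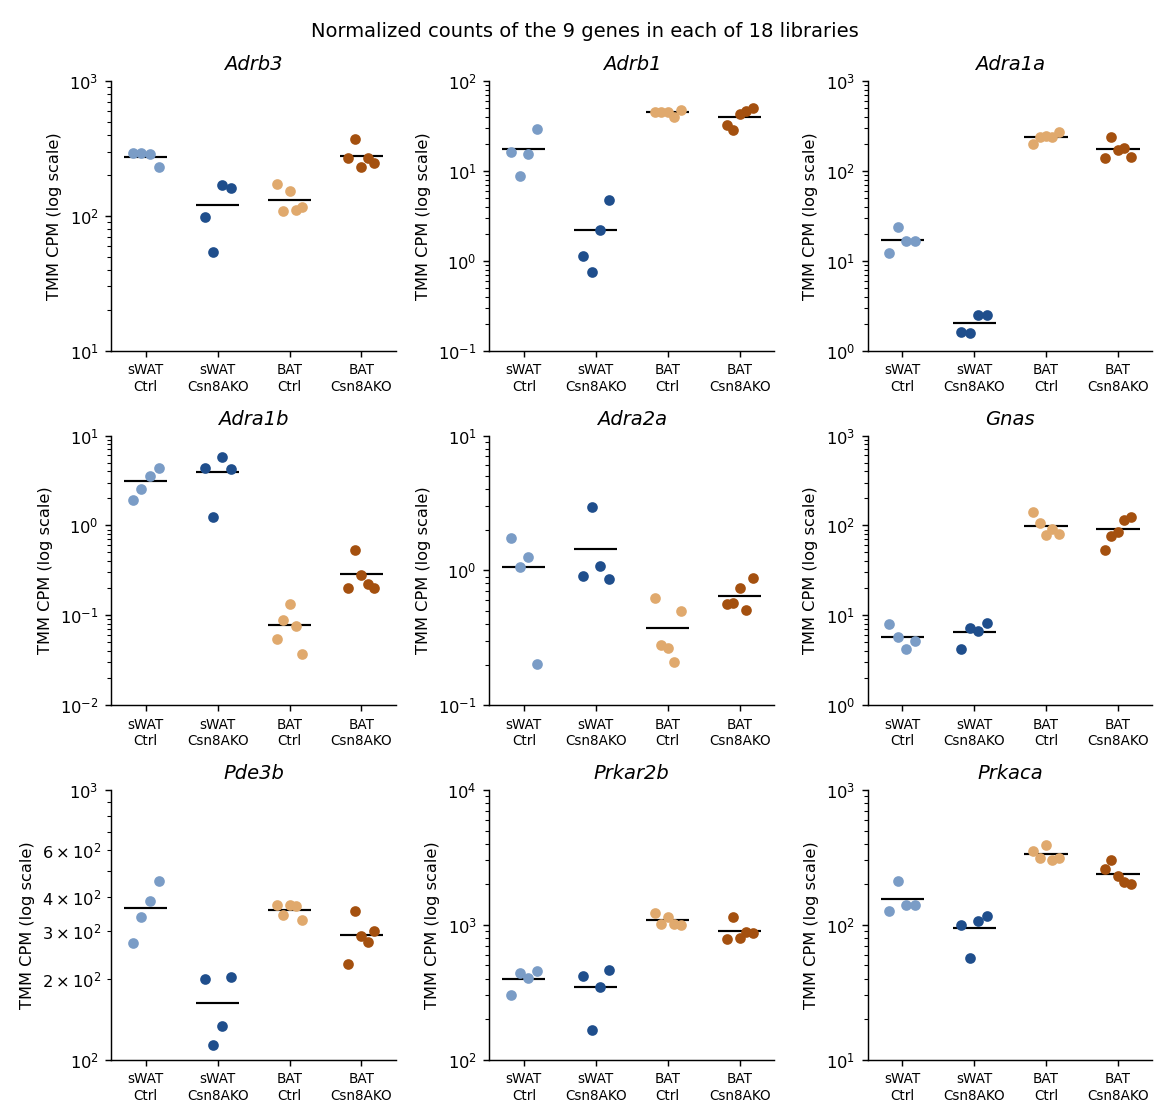
TMM CPM (log axis, scaled to each gene's own range) of the 9 genes, 1 panel per gene, with 1 point per library, a bar at the mean, and the groups Ctrl and Csn8AKO of sWAT (n = 4 each) and BAT (n = 5 each). Adra1a and Adrb1 of Csn8AKO sWAT lie below all other groups, and Adrb3 is lower in Csn8AKO than in Ctrl sWAT but higher in Csn8AKO than in Ctrl BAT, without overlap in either tissue.

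In sWAT, loss of CSN8 in adipocytes went with lower transcripts of 2 adrenergic receptors and of the phosphodiesterase. Of the 9 genes, edgeR called 3 lower (Adra1a, Adrb1 and Pde3b) and 0 higher in Csn8AKO mice, where 5.31% of the 18843 genes tested were called, with 3.00% lower and 2.30% higher. At an unadjusted p under 0.05 there were 5 lower and 0 higher, and DESeq2 called 4 lower and 0 higher. The libraries of the 2 genotypes did not overlap for 5 of the 9 genes, against 13.6% of all genes tested. The median log2 fold change was -0.70 over the 9 genes and 0.03 over all genes tested.

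Adra1a (ENSMUSG00000045875) lies on the plus strand at chr14:66635251-66771168 of GRCm38, the build of all positions given here. It was at 12.1, 23.6, 16.6 and 16.8 CPM in Ctrl sWAT and at 1.64, 1.59, 2.48 and 2.53 CPM in Csn8AKO sWAT. The lowest Ctrl library was above the highest Csn8AKO library, and the fitted level was 8.36-fold lower (log2 fold change -3.06, SE 0.26, adjusted p = 5.24e-04, edgeR). In Csn8AKO sWAT 35 to 38 reads per library were counted on Adra1a. Adrb1 (ENSMUSG00000035283, chr19:56722199-56733113, plus strand) was at 16.1, 8.76, 15.5 and 29.1 CPM in Ctrl and at 1.14, 0.754, 2.21 and 4.77 CPM in Csn8AKO sWAT. Here too the groups did not overlap, at a 7.99-fold lower level (log2 fold change -3.00, SE 0.60, adjusted p = 0.0286, edgeR). This call rested on several libraries, since the adjusted p was 0.0693 without Ctrl replicate 3, 0.0673 without Ctrl replicate 4, 0.0759 without Csn8AKO replicate 1 and 0.1002 without Csn8AKO replicate 3. It was 0.0574 without both libraries high in B and T cell markers, at a log2 fold change of -2.75.

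Adrb3 (ENSMUSG00000031489, chr8:27225776-27250616, minus strand) was at 293, 292, 287 and 229 CPM in Ctrl sWAT and at 98.4, 53.9, 169 and 160.0 CPM in Csn8AKO sWAT. All Csn8AKO libraries were below all Ctrl libraries, but the log2 fold change of -1.20 (SE 0.31, adjusted p = 0.0526, edgeR) did not pass the threshold. It passed without Csn8AKO replicate 2 (adjusted p = 0.0188, log2 fold change -0.96) and without Csn8AKO replicate 4 (adjusted p = 0.0499), with all 18 libraries in one fit (adjusted p = 0.00702) and with DESeq2 (adjusted p = 0.00295). The exons of Adrb3 share 839 bases, 24.9% of its length, with Gm45470 on the opposite strand. Whether counting used the strand is not stated in the sources used here, so reads of this stretch are uncertain. Gm45470 had a log2 fold change of -1.30 in Csn8AKO sWAT (SE 0.36, adjusted p = 0.0727). Adra1b, at 1.91 to 4.31 CPM in Ctrl and 1.26 to 5.83 CPM in Csn8AKO sWAT, had a log2 fold change of 0.34 (SE 0.42, adjusted p = 0.711). Adra2a had a log2 fold change of 0.47 (SE 0.61, adjusted p = 0.724), with its highest value, 2.93 CPM, in Csn8AKO replicate 2, the library highest in B and T cell markers, and without that library the log2 fold change was -0.19 (adjusted p = 0.890).

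Among the genes downstream, Pde3b (ENSMUSG00000030671, chr7:114415281-114539251, plus strand) was at 269.8, 338, 388 and 459 CPM in Ctrl sWAT and at 199, 113, 134 and 203 CPM in Csn8AKO sWAT. The groups did not overlap, and Pde3b was 2.23-fold lower (log2 fold change -1.16, SE 0.23, adjusted p = 0.0198, edgeR). The adjusted p was 0.0660 without Ctrl replicate 3, 0.0672 without Ctrl replicate 4 and 0.0772 without Csn8AKO replicate 3. Prkaca was at 126, 210.3, 141 and 139.9 CPM in Ctrl and at 99.8, 56.7, 106 and 116 CPM in Csn8AKO sWAT. These groups did not overlap either, but the log2 fold change of -0.70 (SE 0.23, adjusted p = 0.109) did not pass. Prkar2b, at 304 to 453 CPM in Ctrl and 166 to 465 CPM in Csn8AKO sWAT, had a log2 fold change of -0.20 (SE 0.28, adjusted p = 0.748). Without Csn8AKO replicate 2 its log2 fold change was 0.03. Gnas had a log2 fold change of 0.19 (SE 0.27, adjusted p = 0.763), with 4.24 to 8.03 CPM in Ctrl and 4.23 to 8.25 CPM in Csn8AKO sWAT.

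Markers of adipocytes and of other cells moved in the same sWAT libraries. The 12 adipocyte markers summed to 28633 to 36200 CPM in Ctrl and 8454 to 20496 CPM in Csn8AKO sWAT, and 4 of the 12 fell. Of 8 brown adipocyte markers tested, 2 fell, Cidea and Otop1, with log2 fold changes of -7.52 and -3.38 (adjusted p = 2.27e-04 and 0.0149). Of these 8, 4 had a positive log2 fold change, up to 2.27, but 0 were called higher, and the median was -0.40. The 10 markers summed to 121 to 284 CPM in Ctrl and 92.0 to 196 CPM in Csn8AKO sWAT. Cidea and Otop1, like Adra1a and Adrb1, were higher in BAT than in sWAT of Ctrl mice, with log2 fold changes of 5.29 and 4.59. All 10 brown adipocyte markers were called higher in BAT in that comparison. Of 12 macrophage markers 8 rose, and their sum was 1132 to 1550 CPM in Ctrl and 1897 to 3400 CPM in Csn8AKO sWAT. Of 8 fibroblast and progenitor markers 1 rose by the test, while all 8 had a positive log2 fold change, with a median of 0.80. In whole tissue, fewer adipocytes and less RNA per adipocyte cannot be told apart. On the log2 scale the mean of the adipocyte markers was 0.94 lower in Csn8AKO than in Ctrl sWAT. Taken against that mean in the same library, Adra1a was still 2.09 lower and Adrb1 2.20 lower in Csn8AKO sWAT, and neither overlapped between genotypes. Adrb3 and Pde3b were 0.38 and 0.24 lower on this scale, and both overlapped. Prkar2b was 0.66 higher against the markers, without overlap, and Prkaca was 0.22 higher with overlap. Adra1b was 1.15 higher without overlap, and Adra2a and Gnas were 1.48 and 1.12 higher with overlap. These differences are a description of the libraries, and the part of cell composition in the results was not tested.

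**Figure D3:**
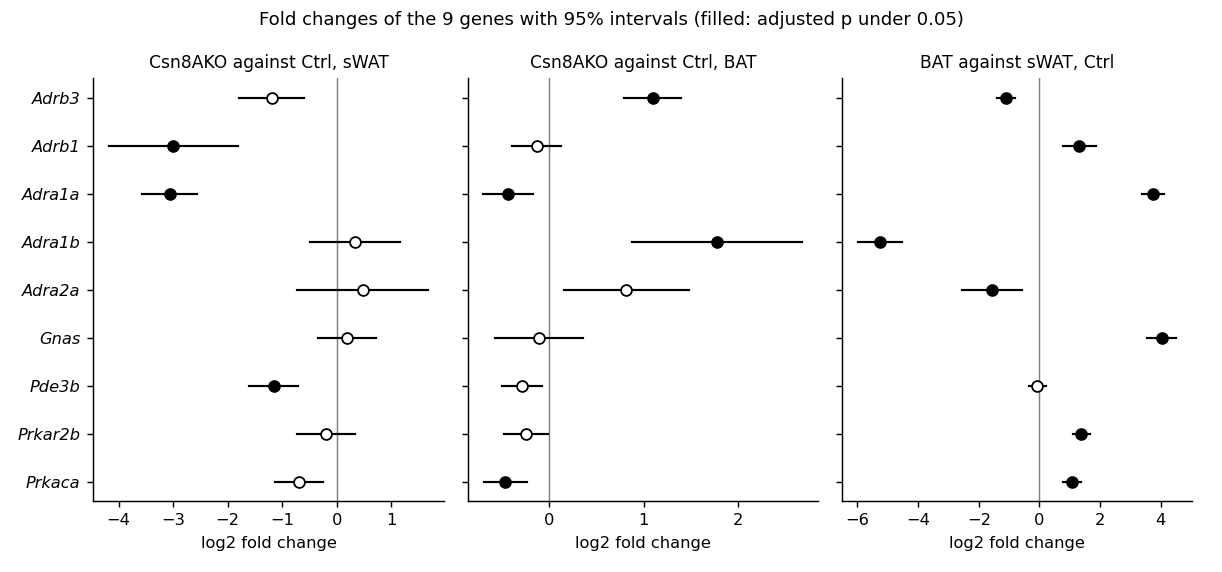
Log2 fold changes of the 9 genes from edgeR with approximate 95% intervals (lines). Panels show Csn8AKO against Ctrl in sWAT (left) and BAT (middle), and BAT against sWAT in Ctrl mice (right). Filled points have an adjusted p under 0.05. The intervals were drawn from the SE with a normal quantile and are narrower than the test would give. The x axes differ in range. Adrb3 lies at -1.20 in sWAT and 1.09 in BAT, while Adra1a lies at -3.06 and -0.43.

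In BAT the receptor with the clearest change was Adrb3, and it was higher in Csn8AKO mice. Of the 9 genes, 2 rose (Adrb3 and Adra1b) and 2 fell (Adra1a and Prkaca), where 31.9% of the 22345 genes tested were called, with 16.0% higher and 15.8% lower, so the share called was near the background. The genotypes did not overlap for 3 of the 9 genes, against 21.1% of all genes tested. Adra1b is among those that rose and those without overlap, and it passed the filter on low counts only through the Csn8AKO libraries. The median log2 fold change was -0.13 over the 9 genes and 0.01 over all genes.

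Adrb3 was at 173, 108, 152, 110.3 and 116 CPM in Ctrl BAT and at 269, 372, 230.5, 269 and 245 CPM in Csn8AKO BAT. Every Csn8AKO library was above every Ctrl library, and Adrb3 was 2.13-fold higher (log2 fold change 1.09, SE 0.15, adjusted p = 1.48e-04, edgeR). Gm45470, which shares exon bases with it, also rose (log2 fold change 0.76, SE 0.16, adjusted p = 0.00316). Without the 2 Csn8AKO BAT libraries that held muscle transcripts, the log2 fold change of Adrb3 was 1.15 (adjusted p = 0.00118). Adra1a was at 198, 240.1, 247, 241 and 268 CPM in Ctrl and at 139, 239, 172, 182 and 143 CPM in Csn8AKO BAT. Only Csn8AKO replicate 2 reached into the Ctrl range. Adra1a was 1.35-fold lower (log2 fold change -0.43, SE 0.13, adjusted p = 0.0254), a call that was lost without Ctrl replicate 3 (adjusted p = 0.0511), Ctrl replicate 4 (0.0507), Ctrl replicate 5 (0.0570), Csn8AKO replicate 1 (0.0619), Csn8AKO replicate 3 (0.0563) or Csn8AKO replicate 5 (0.0725). Without both libraries with muscle transcripts, Csn8AKO replicates 1 and 5, its log2 fold change was -0.26 (adjusted p = 0.181).

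The other receptors in BAT did not pass the test or were counted on few reads. Adrb1 was at 39.9 to 47.4 CPM in Ctrl and 28.8 to 50.1 CPM in Csn8AKO BAT (log2 fold change -0.13, SE 0.13, adjusted p = 0.498). Adra1b rose by a log2 fold change of 1.78 (SE 0.46, adjusted p = 0.00869) without overlap, on 2 to 8 reads per library in Ctrl and 6 to 16 in Csn8AKO BAT. It was tested only because the Csn8AKO libraries, where it was high, passed the filter on low counts, so little rests on this call. With no filter the adjusted p was 0.0257 by edgeR. The Adra1b levels of 0.0372 to 0.134 CPM in Ctrl and 0.203 to 0.529 CPM in Csn8AKO BAT were below every value in sWAT, the lowest of which was 1.26 CPM. Adra2a, on 11 to 36 reads per library, had a log2 fold change of 0.82 (SE 0.34, adjusted p = 0.0783), which passed without Ctrl replicate 1 (log2 fold change 1.04, adjusted p = 0.0328). Within the sum of the 5 receptors, the share of Adrb3 was 43.3% to 58.5% in Ctrl and 67.6% to 75.6% in Csn8AKO BAT, and that of Adra1a was 25.9% to 38.8% in Ctrl and 15.1% to 19.5% in Csn8AKO BAT. Neither share overlapped between genotypes. Shares of one sum are not separate results, since a rise of Adrb3 lowers the share of Adra1a, and the CPM of Adra1a itself overlapped. The ratio of Adrb3 to Adra1a TPM averaged 1.46 in Ctrl BAT and 4.15 in Csn8AKO BAT.

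Downstream in BAT, Prkaca was at 356, 314, 389.8, 304 and 314 CPM in Ctrl and at 260.1, 301, 230.4, 207 and 202 CPM in Csn8AKO mice. The groups did not overlap, with 301 CPM in 1 Csn8AKO library just below the lowest Ctrl value, and Prkaca was 1.38-fold lower (log2 fold change -0.46, SE 0.12, adjusted p = 0.00824, edgeR). With all 18 libraries in one fit the adjusted p was 0.0543. Pde3b had a log2 fold change of -0.29 (SE 0.11, adjusted p = 0.0524), which passed without Csn8AKO replicate 2 (adjusted p = 0.00487) and with DESeq2 (adjusted p = 0.0429). Prkar2b had a log2 fold change of -0.24 (SE 0.12, adjusted p = 0.133) and likewise passed without Csn8AKO replicate 2 (adjusted p = 0.00692). Gnas, at 77.3 to 142 CPM in Ctrl and 54.0 to 124 CPM in Csn8AKO BAT, had a log2 fold change of -0.11 (SE 0.24, adjusted p = 0.770). Without Ctrl replicate 1 or Csn8AKO replicate 1 it was 0.05 or 0.04.

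The adipocyte markers of BAT summed to 14122 to 16482 CPM in Ctrl and 12932 to 15638 CPM in Csn8AKO mice, and their mean on the log2 scale differed by 0.02. Against that mean, Adrb3 was 1.06 higher in Csn8AKO BAT without overlap, Adra1a was 0.49 lower and Prkaca 0.51 lower, both with overlap, and Adra1b was 1.30 higher without overlap. The other 5 genes overlapped, from 0.34 lower for Pde3b to 0.75 higher for Adra2a. The markers did not move together in BAT, where Retn had a log2 fold change of 3.19, Cebpa and Lipe fell, and the median over the 12 markers was -0.11. Of 12 macrophage markers 11 rose, from 104 to 154 CPM in sum to 419 to 601 CPM, and all 8 fibroblast and progenitor markers rose. Of 10 brown adipocyte markers 1 rose and 3 fell, and Ucp1 was at 1637 to 4582 CPM in Ctrl and 2428 to 5408 CPM in Csn8AKO BAT. Th, the enzyme that marks sympathetic noradrenergic cells, had at most 0.203 CPM in any library, so nerve content was not measured by its transcript. Whether cell composition took part in these results was not tested.

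The genotype difference itself differed between the tissues for 3 receptors. In the interaction test over all 18 libraries, 3 of the 9 genes had a more positive change in BAT than in sWAT and 0 a more negative one (0 also at an unadjusted p under 0.05 and by DESeq2), where 2.36% of 22509 genes were called, with 1.61% more positive and 0.755% more negative. The difference of log2 fold changes was 2.27 for Adrb3 (SE 0.36, adjusted p = 0.00175, edgeR), 2.65 for Adra1a (SE 0.28, adjusted p = 4.40e-05) and 2.90 for Adrb1 (SE 0.54, adjusted p = 0.00865). For Adrb3 the changes in the 2 tissues had opposite signs, whereas Adra1a was lower in both. A positive difference was not particular to the 9 genes, of which 7 were positive at a median of 0.85. Of 12 adipocyte markers 11 were positive (median 0.79, 1 called), and of 8 lipolysis effectors 7 (median 0.82, 0 called). Pde3b had a difference of 0.85 (SE 0.25, adjusted p = 0.0832), which passed without Ctrl sWAT replicate 1 (adjusted p = 0.0370) and without Csn8AKO sWAT replicate 4 (adjusted p = 0.0429). The other 5 genes had adjusted p from 0.268 to 0.958. This test uses the same libraries as the tests within tissues, and tissue and age cannot be told apart in it.

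The rest of the pathway was followed with 109 other genes in 11 lists. In Csn8AKO sWAT, 2 of the 103 tested rose (1.94%, against 2.30% of all genes) and 7 fell (6.80%, against 3.00% of all genes), and the median log2 fold change was 0.01. Of the 8 other G protein alpha subunits, 9 adenylyl cyclases, 15 phosphodiesterases, 7 PKA subunits and inhibitors, 10 A-kinase anchors and 7 receptor kinases and arrestins tested, edgeR called 0. At an unadjusted p under 0.05, 4 of these 56 genes were higher and 5 lower, and DESeq2 called 2 higher and 3 lower. Mc2r and Mc5r, receptors for melanocortins that couple to the stimulatory G protein, fell by 1.19 and 2.09 on the log2 scale (adjusted p = 0.0273 and 0.0370). Adora1, an inhibitory adenosine receptor, fell by 1.24 (adjusted p = 0.0347), and Adora2b, a stimulatory one, rose by 0.94 (adjusted p = 0.0363). The other 14 of these 18 receptors did not pass. Of 8 lipolysis effectors, Pnpla2, which encodes adipose triglyceride lipase, fell by 1.28 (adjusted p = 0.0178), Lipe, which encodes the PKA target hormone-sensitive lipase, by 1.18 (adjusted p = 0.0443) and the glycerol channel gene Aqp7 by 1.07 (adjusted p = 0.0355). Lipe is also 1 of the 12 adipocyte markers. Popdc2, a cAMP-binding membrane protein, fell by 1.93 (adjusted p = 0.00617), and Nr4a3, a nuclear receptor gene induced by cAMP, rose by 1.16 (adjusted p = 0.0361).

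In Csn8AKO BAT, 30 of the 106 tested pathway genes rose (28.3%, against 16.0% of all genes) and 18 fell (17.0%, against 15.8% of all genes), so the share that fell was near the background. The median log2 fold change was 0.24. Which of these genes passed the filter on low counts only through Csn8AKO libraries, as Adra1b did, is not given here. Of the other adrenergic receptors, Adra1d fell by 1.11 (SE 0.23, adjusted p = 0.00327), from 9.58 to 26.1 CPM in Ctrl to 5.65 to 9.43 CPM in Csn8AKO BAT, while Adra2b and Adra2c, at most 2.00 and 0.569 CPM, did not pass. Of the inhibitory (Gi/o) alpha subunits, Gnai1, Gnai2 and Gnai3 rose by 0.50, 0.30 and 0.28 (adjusted p = 0.00508, 0.00655 and 0.0219). Gnao1, of the same class, fell by 0.45 (adjusted p = 0.0406), and Gna11 fell by 0.20 (adjusted p = 0.0381). Adenylyl cyclases split, as Adcy7, Adcy10 and Adcy5 rose by 1.22, 2.25 and 2.27 (adjusted p = 6.77e-06, 2.85e-04 and 0.00402) and Adcy6 and Adcy9 fell by 0.59 and 1.13 (adjusted p = 1.32e-04 and 8.52e-04). Among 15 other phosphodiesterases 6 rose, with Pde11a at 1.94, Pde7a at 0.71 and Pde10a at 0.66 in log2 fold change, and 3 fell, namely Pde4a by 1.36, Pde1a by 0.75 and Pde8a by 0.52. The PKA inhibitor genes Pkig, Pkib and Pkia rose by 0.66, 2.06 and 0.83 (adjusted p = 9.66e-04, 0.00676 and 0.0296). The catalytic subunit gene Prkacb fell by 0.48 (SE 0.07, adjusted p = 1.71e-04), beside the fall of Prkaca.

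**Figure D4:**
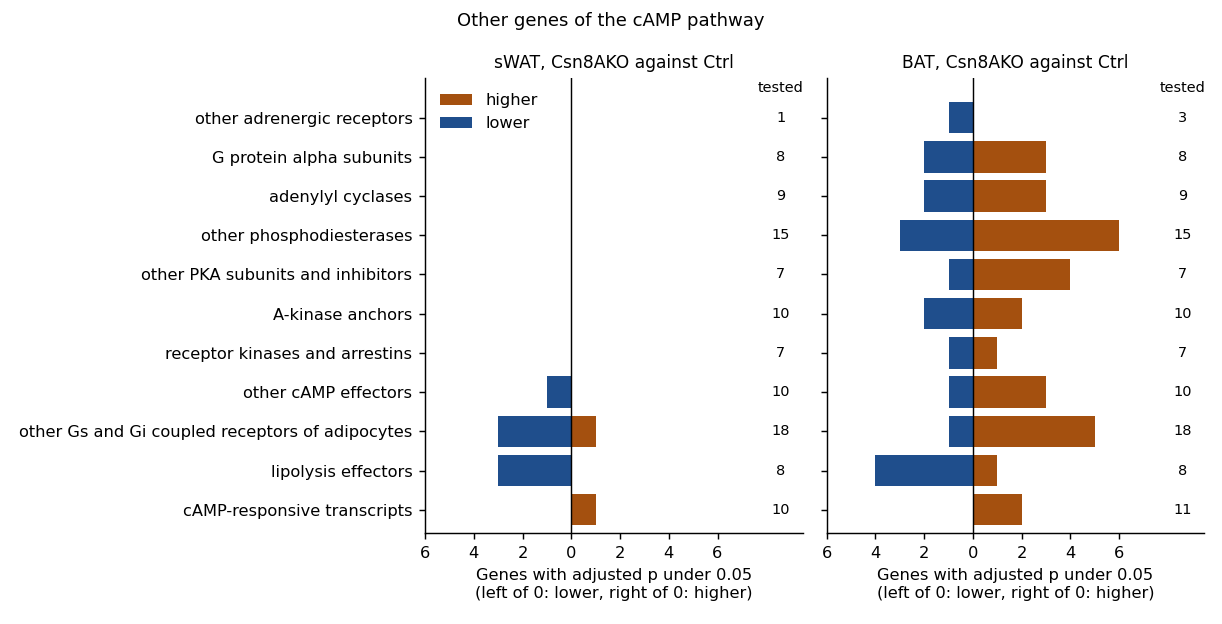
Number of genes in 11 lists of the cAMP pathway with an adjusted p under 0.05 in Csn8AKO against Ctrl, lower to the left of 0 and higher to the right, in sWAT (left panel) and BAT (right panel), with the number tested beside each bar. In sWAT 2 genes were higher and 7 lower, and in BAT 30 were higher and 18 lower.

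Further down the pathway in BAT, the A-kinase anchors Akap6 and Akap12 rose by 0.77 and 0.52 and Akap1 and Akap9 fell by 0.72 and 0.25. Grk3, a kinase that desensitizes receptors, fell by 0.86 (adjusted p = 4.96e-05), and Arrb2, a beta-arrestin gene, rose by 0.56 (adjusted p = 6.58e-04). Of the genes listed as other cAMP effectors, Popdc2 fell by 2.04 (adjusted p = 2.91e-06). The cAMP-activated exchange factor gene Rapgef4, the coactivator gene Crtc1 and Creb3 rose by 0.74, 0.30 and 0.47. Whether Creb3 responds to cAMP was not tested. The thyrotropin receptor gene Tshr rose by 3.81 (SE 0.28, adjusted p = 4.36e-06), Ffar2, a receptor for short-chain fatty acids, by 3.42 (SE 0.45, adjusted p = 1.31e-04) and the prostaglandin receptor gene Ptger2 by 1.19 (SE 0.19, adjusted p = 3.63e-04). Tshr and Ffar2 were called lower in Ctrl BAT than in Ctrl sWAT, and their reads per library are not given here. Adora1 fell by 1.80 (SE 0.28, adjusted p = 8.96e-04). Of 8 lipolysis effectors, Abhd5, the coactivator of adipose triglyceride lipase, rose by 1.11 (adjusted p = 1.30e-04). Aqp7, G0s2, an inhibitor of the same lipase, and Lipe were 3 of the 4 that fell, by 0.64, 1.14 and 0.38 (adjusted p = 4.25e-04, 0.00632 and 0.0221). Of 11 transcripts induced by cAMP, Fos and Nr4a3 rose by 3.12 and 2.07 (adjusted p = 0.0341 and 0.0432), both with overlapping groups, and 9 did not pass.

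Profiles over the 18 libraries were compared by the mean absolute difference of centred log2 CPM, among 11786 genes with an average log2 CPM of at least 1. The genes nearest to Adrb3 were Smoc1 (0.315), Orm1 (0.330) and Pgrmc2 (0.332), against a median of 0.683 over all genes compared. The nearest to Adra1a were Mpzl2 (0.369), Cox8b (0.386) and Kcnk3 (0.446), against a median of 2.49. Adra1a lies far from most genes by this measure, since its level spans from 1.59 to 268 CPM. The profiles hold the difference between depots together with that between genotypes.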

How the data were processed

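The submitters' processing notes name STAR, and the study's methods state that reads from ribosomal RNA-depleted libraries were aligned to an Ensembl primary assembly and that unique, unambiguous reads were counted on genes with featureCounts. Positions in the files were taken as GRCm38, since the start of Gnas is that of RefSeq on this build. For each of the 18 libraries the authors deposited raw counts for 55487 genes. The authors also deposited CPM, FPKM and TPM values, which were checked against the counts (largest difference 5e-10) and not used; TPM was computed again from counts and gene length. The counts were tested with edgeR 4.0.16 in R 4.3.3, with TMM factors, filterByExpr and robust quasi-likelihood fits within each tissue, between tissues in Ctrl mice, and over all libraries for the interaction, with Benjamini-Hochberg adjustment over all genes tested. DESeq2 1.42.0, other scalings, no filter, one fit for all libraries, a replicate block and fits without each library were alternatives. Fits without libraries that held B and T cell or muscle transcripts were chosen after seeing the data. The fits were tested on simulated data.

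Members and lists were chosen with earlier results of these data known. The text names all 9 genes, the called genes of 11 pathway lists (at most 3 per list and direction by adjusted p), the 3 genes nearest in profile to Adrb3 and to Adra1a, Cops8 and defining cell type markers, 1 of which is not reported here. Genes that overlap a member, and the markers Cidea, Otop1, Retn and Cebpa, were chosen after their values were seen. Promoter windows are from RefSeq. No pair of libraries within a group agreed within counting noise, and each was counted as 1 mouse. Depth limits genes with few reads, such as Adra1b and Adra2a in BAT, most.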

Additional observations from a re-analysis of the deposited data

Results flagged for a closer look

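The genotype difference differed between BAT and sWAT by the interaction test of edgeR for 3 receptor genes, with the log2 fold change in BAT minus that in sWAT at 2.65 for Adra1a (adjusted p = 4.40e-05), 2.90 for Adrb1 (adjusted p = 0.00865) and 2.27 for Adrb3 (adjusted p = 0.00175). In 4 groups of libraries a single library stood apart from the others of its group by Dixon's test, among 36 groups looked at, where chance marks about 1 in 20. Adrb3 was at 229 CPM in Ctrl sWAT replicate 4, the nearest other being 287 CPM, and at 372 CPM in Csn8AKO BAT replicate 2, the nearest other being 269 CPM. Without Ctrl sWAT replicate 4 or Csn8AKO BAT replicate 2 the direction of the change of Adrb3 in that tissue remained. Adra2a was at 2.93 CPM in Csn8AKO sWAT replicate 2, against 1.07 CPM in the nearest other, and this library was also the highest in B and T cell markers. Adra1b was at 0.529 CPM in Csn8AKO BAT replicate 2, against 0.283 CPM in the nearest other, on at most 16 reads.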

How the results depend on the processing

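Over 36 fold changes of the 9 genes under the alternatives, 648 values in all, 594 kept their direction and side of the threshold, 22 lost a call, 18 gained one and 14 changed sign, and 17 of the 36 never changed. Those that changed sign had no call. In sWAT without single libraries, Adra2a ranged from -0.19 (without Csn8AKO replicate 2) to 0.85, and Prkar2b from -0.38 to 0.0262 (without Csn8AKO replicate 2). In BAT with library size alone, Adrb1 was 0.0236 and Gnas 0.04997, and without single libraries Gnas ranged from -0.24 to 0.0481, above 0 without Ctrl replicate 1 or Csn8AKO replicate 1. Between depots Pde3b was 0.0164 with no filter on low counts and -0.18 to 0.0680 without single libraries, above 0 without sWAT Ctrl replicate 4. In the interaction with library size alone, Gnas was 0.0158 and Prkar2b 0.25. There, without single libraries, Adra2a ranged from -0.0113 (without sWAT Ctrl replicate 1) to 0.97 and Prkar2b from -0.29 to 0.11, above 0 without sWAT Ctrl replicate 1 or sWAT Csn8AKO replicate 1 or 4. Beyond the lost calls given with the genes, Adrb1 in sWAT had an adjusted p of 0.0877 with no filter, and Adra1a in BAT had 0.0564 with library size alone and 0.0617 with all 18 libraries in one fit.

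In sWAT 1000 genes were called, against 434 with library size alone, 1815 with DESeq2, 2463 with all 18 libraries in one fit and 1820 without the libraries highest in B and T cell markers, and 326 to 1477 without single libraries. Of the 9 genes 3 were called there, 5 in one fit of all libraries, and 1 to 4 without single libraries, with 1 left without Ctrl replicate 3, Ctrl replicate 4 or Csn8AKO replicate 3. In BAT 4 of the 9 were called and 2 in one fit of all libraries, and 3 to 6 without single libraries. In the interaction 532 genes were called, against 1096 with DESeq2 and 355 to 720 without single libraries. With library size alone the split of higher to lower genes went from 434 and 566 to 106 and 328 in sWAT, from 3585 and 3536 to 4183 and 2087 in BAT, from 5748 and 6039 to 3781 and 6719 between depots, and from 362 and 170 to 494 and 39 in the interaction. That scaling moved the median log2 fold change of all genes to 0.14 in BAT, -0.19 between depots and 0.21 in the interaction, and the fold changes it gives are relative to those medians. Without the libraries high in B and T cell markers the split in sWAT was 993 and 827. The cause was not tested.

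Within a tissue replicate numbers did not pair the samples, as deviations of same-numbered libraries correlated at -0.30 to 0.15 in sWAT and -0.09 to 0.10 in BAT, and 0 of 4 and 2 of 5 libraries correlated best with their own number. Between Ctrl sWAT and Ctrl BAT 3 of 4 did so, but at correlations of only 0.02 to 0.07. With a replicate block 299 genes were called in sWAT, 6776 in BAT, 10460 between depots and 446 in the interaction, and Pde3b in sWAT had an adjusted p of 0.0559. The block changed no other call among the 9 genes. Depth limits Adra1b and Adra2a, which had at most 36 reads in BAT libraries.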
